A study of Mus musculus with 6 samples.

Results

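The genes described here are 10 that encode receptors for glutamate: Gria1, Gria2, Gria3 and Gria4 for AMPA receptor subunits, Grik1, Grik2 and Grik5 for kainate receptor subunits, Grin1 for the NMDA receptor subunit GluN1, and Grm3 and Grm5 for metabotropic receptors. They were chosen by gene symbol from the 55357 genes of the deposited table, and all 10 passed the filter on low values that left 15280 genes for testing. Their RNA was measured in cortical astrocytes that were cultured from late-gestation C57BL/6 mouse embryos and collected at 48 hours. In 3 cultures (KE) a transfected plasmid expressed, under the CMV promoter, BRAF with a FLAG tag and the gain-of-function change K499E, and the other 3 cultures received no plasmid (NT, labelled naive). An empty plasmid or BRAF WT was not given to any culture analysed here, so that BRAF KE and plasmid transfection cannot be told apart in any difference below. The culture method included a shaking step before replating, and a medium with the growth factor HB-EGF.

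Glutamate is the main excitatory transmitter of the brain. AMPA, kainate and NMDA receptors are ion channels assembled from 4 subunits, and open when glutamate binds, whereas metabotropic receptors act through G proteins. Astrocytes sense synaptic glutamate mainly through metabotropic receptors, of which mGluR5 couples to Gq and the release of Ca2+ from internal stores, and mGluR3 couples to Gi/o and lowers cyclic AMP. Immature oligodendrocyte lineage cells and neurons also express many of these genes.

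The deposited values are gene counts divided by a size factor for each culture (normalized counts). They summed to between 30472429 and 30895529 per culture, and the depth was approximately 24500000 reads in KE replicate 2, the lowest, to 34100000 in KE replicate 1. Braf, the transfected gene, was at 35025, 34933 and 40978 in KE and at 925.3, 810.5 and 946.3 in NT. Of 10 astrocyte markers, 6 were higher and 2 lower in KE, and the one with the highest normalized counts (not divided by gene length), the glutamate transporter gene Slc1a3, was at 47360 ± 1070 in KE and 39859 ± 1757 in NT (SD, n = 3). Microglia and macrophage markers were lower in KE for 12 of 12, with summed levels of 4385 to 6022 in KE and 36567 to 42747 in NT. In RNA from a whole culture, fewer cells of a type and less RNA per cell cannot be told apart. Nothing in the labels says that the 3 cultures of a group came from separate preparations, so the p-values measure only the spread between these cultures.

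In the KE cultures, 6 of the 10 receptor genes were lower, 1 was higher and 3 were not called. Calls were made at an adjusted p-value under 0.05 (limma with Benjamini-Hochberg adjustment over all tested genes). The background was wide, as 51.3% of all tested genes were called, 26.0% as lower and 25.3% as higher. The groups did not overlap for 7 of the 10 genes, with KE below for 6 and above for 1, whereas 59.9% of all tested genes showed no overlap, 29.9% with KE below and 30.1% with KE above. The median log2FC of the 10 genes was -0.43, against 0.00 over all tested genes, and their median absolute log2FC was 0.43 against 0.30. A log2FC here is a difference of log2(normalized count + 1), which understates the change of low genes. The normalized counts of the 10 genes together were 7235 to 7470 in the KE cultures and 8622 to 8924 in the NT cultures.

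**Figure D1:**
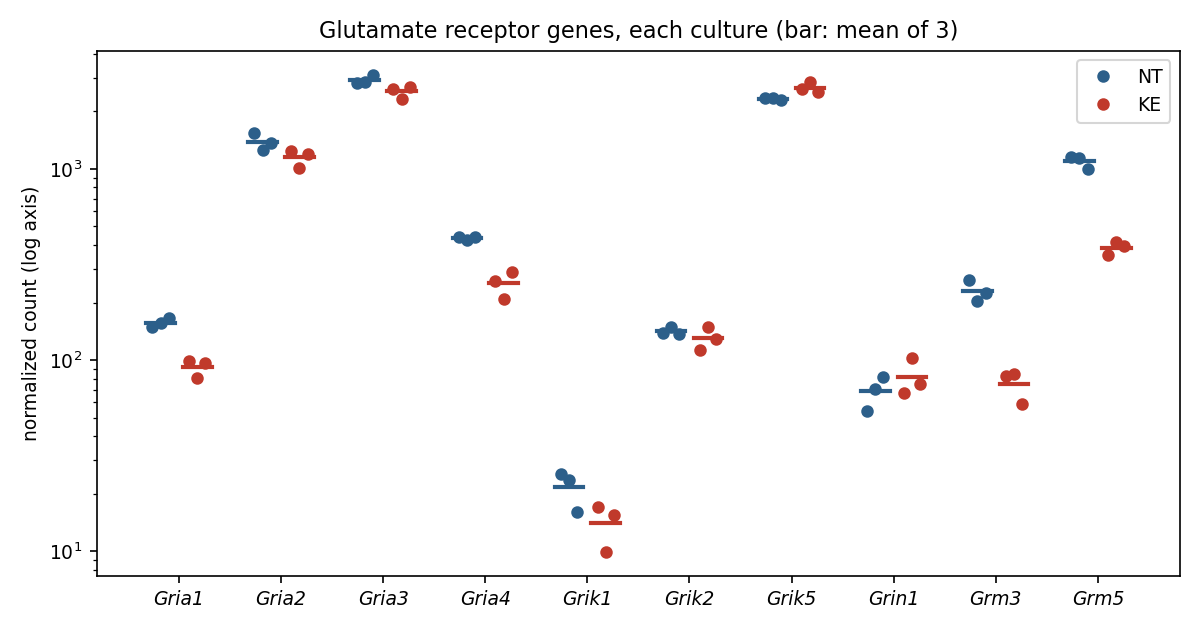
Normalized count (log axis) of each of the 10 receptor genes in each culture, NT in blue and KE in red, with a bar at the mean of 3 cultures. Grm3 and Grm5 show the widest separation, with KE means of 75.4 and 388 against NT means of 229 and 1098, while the groups overlap for Grik1, Grik2 and Grin1.

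The largest differences were those of the metabotropic receptors. Grm5 (ENSMUSG00000049583, plus strand of chromosome 7 of GRCm39, 87233376 to 87784594) was at 354, 415 and 395 normalized counts in KE replicates 1 to 3 and at 1156, 1138 and 1000 in NT replicates 1 to 3. The highest KE culture was thus below the lowest NT culture, and the KE mean was 35.3% of the NT mean. The log2FC was -1.50 (standard error 0.09, 95% interval -1.70 to -1.30, adjusted p = 2.6e-07 from limma). Grm3 (ENSMUSG00000003974, minus strand of chromosome 5, 9534069 to 9776088) was at 82.3, 85.0 and 58.9 in KE and at 261, 203 and 223 in NT. Its KE mean was 32.9% of the NT mean, again with no overlap between the groups. The log2FC was -1.60 (standard error 0.18, 95% interval -1.99 to -1.21, adjusted p = 2.3e-05 from limma). Among all tested genes, 5.96% had a log2FC at or below -1. The balance between both receptors was compared as the log2 ratio of Grm3 to Grm5 per kilobase of exon, which was -1.44, -1.62 and -2.08 in KE and -1.48, -1.82 and -1.50 in NT. These ratios overlapped (KE minus NT -0.11, two-sided exact permutation p = 0.7, adjusted p = 0.778 over the 10 comparisons of shares and of this ratio, where 3 against 3 cultures cannot give less than 0.1), and the sign of the difference turned without KE replicate 3 (0.07).

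Markers of the oligodendrocyte lineage were lower along with these genes, 8 of 10 tested, while Cnp (log2FC 0.38) was higher and Mag (-1.08, adjusted p = 0.068 from limma) was not called, both named after their values were seen. The summed level of that list, in which Olig1 had the highest values, was 29830 to 34911 in KE and 38273 to 38491 in NT, and Mog was at 0 in 4 of 6 cultures. Of the neuron markers, 3 of 10 tested were higher and 2 lower, a called share near the 51.3% of all tested genes. Nefl (log2FC 1.73), Nefm (1.00) and Tubb3 (0.43) were higher, and Map2 (-0.51) and Stmn2 (-0.58) lower. All of these except Map2 were named after their values were seen. The summed level of the list was 7140 to 7634 in KE and 9061 to 9763 in NT. Map2, the highest (4965 ± 152 against 7077 ± 370), made up most of it in both groups. The vesicular glutamate transporter gene Slc17a6 was at 0 in all 6 cultures. Vascular and fibroblast markers were higher for 3 and lower for 3 of 8 tested, and Acta2, the highest, fell by 1.34 on the log2 scale. The part that these cells, or the microglia, had in the receptor differences was not tested.

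AMPA receptors carry most fast excitatory current, and their permeability to Ca2+ depends on the GluA2 subunit. GluA2 owes this to the editing of 1 adenosine in its RNA, which turns the glutamine codon of the pore loop into one read as arginine (the Q/R site). The genomic sequence around the corresponding codon, in capitals, is given for the 4 AMPA genes and the 3 kainate genes. The share of Gria2 in the AMPA pool is compared below. Each run is 27 bases of coding sequence, 5′ to 3′ on the gene's strand, from the canonical Gencode transcript on GRCm39.
Gria1: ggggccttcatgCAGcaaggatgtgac
Gria2: ggtgcctttatgCAGcaaggatgcgat
Gria3: ggtgcttttatgCAGcaaggatgtgat
Gria4: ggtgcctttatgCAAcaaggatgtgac
Grik1: ggagctctcatgCAGcaaggatcggag
Grik2: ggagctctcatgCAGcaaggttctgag
Grik5: ggtggcttcatgCAGcagggctcggag
The codon lies in exon 11 of Gria1 (chr11:57133920-57133922, plus strand), Gria2 (chr3:80614218-80614220, minus strand) and Gria3 (chrX:40699142-40699144, plus strand), and in exon 12 of Gria4 (chr9:4464137-4464139, minus strand). In the kainate genes, all on the minus strand, it lies in exon 12 of Grik1 (chr16:87737430-87737432), exon 13 of Grik2 (chr10:49120425-49120427) and exon 15 of Grik5 (chr7:24721922-24721924). The runs of Grik1 and Grik2 cross into the next exon. Of the 27 bases, Gria3 shares 25 with Gria2, Gria4 24, Gria1 23, Grik1 and Grik5 20 each and Grik2 19. Glutamine is encoded by CAG in 6 of these genes and by CAA in Gria4. Gria2, Grik1 and Grik2 are the genes of this group known to be edited here. Gene counts do not distinguish edited from unedited RNA.

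All 4 AMPA subunit genes were lower in KE, by unequal amounts. Gria4 (ENSMUSG00000025892, minus strand of chromosome 9, 4417604 to 4796326) was at 259, 209 and 289.9 in KE and at 443, 427 and 439.8 in NT. Every KE culture was below every NT culture, and the log2FC was -0.80 (standard error 0.12, limma adjusted p = 0.00029). Gria1 (ENSMUSG00000020524, plus strand of chromosome 11, 56902153 to 57221080) was at 99.1, 81.0 and 97.0 in KE and at 148, 156 and 166 in NT. It also showed no overlap and differed by -0.76 on the log2 scale (standard error 0.15, limma adjusted p = 0.0013). The more abundant Gria2 and Gria3 differed less. Gria2 (ENSMUSG00000033981, minus strand of chromosome 3, 80588757 to 80710538) was at 1245, 1010 and 1194 in KE and at 1533, 1261 and 1370 in NT, so that the highest KE culture lay just below the lowest NT culture. Its log2FC was -0.27 (standard error 0.10, adjusted p = 0.034 from limma). Gria3 (ENSMUSG00000001986, plus strand of chromosome X, 40489476 to 40767490) was at 2608, 2321 and 2696 in KE and at 2819, 2855 and 3115 in NT, a narrow separation. Its log2FC was -0.21 (standard error 0.07, adjusted p = 0.031 from limma). Neither call was kept in every fit that left out 1 culture. Such fits hold fewer cultures, and called 6776 to 7199 genes over all in place of 7844. Gria2 was not called without KE replicate 2 (log2FC -0.18), NT replicate 1 (-0.20) or NT replicate 3 (-0.28), with adjusted p from 0.061 to 0.13, nor was Gria3 without KE replicate 1 (-0.23), KE replicate 2 (-0.14) or NT replicate 3 (-0.16), with adjusted p from 0.051 to 0.12 (limma).

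Because a share within a culture does not move with the scaling of that culture, the makeup of the AMPA subunit pool was also compared as each gene's share of their summed level per kilobase of exon. Gria3 made up 74.1%, 75.8% and 74.8% in KE and 69.2%, 71.7% and 72.1% in NT. Its share was larger in every KE culture, while the shares of Gria1 (4.21% ± 0.135 in KE, 5.90% ± 0.223 in NT) and Gria4 (5.23% ± 0.431 in KE, 7.48% ± 0.256 in NT) were smaller in every KE culture (SD, n = 3). Each of these 3 differences had a two-sided exact permutation p of 0.1, the smallest the design allows, and an adjusted p of 0.143. A larger share of any gene leaves less for the others, so these differences are not separate results. Gria2, the subunit that limits Ca2+ entry, made up 15.7% ± 0.613 in KE and 15.6% ± 1.59 in NT (SD, n = 3), with overlapping values (exact permutation p = 1, sign of the difference not kept when single cultures were left out). The shares depend on the length assigned to a gene. With the longest transcript, Gria2 made up 18.1% in KE and 18% in NT, again with overlap, and Gria1 2.54% and 3.56%.

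**Figure D2:**
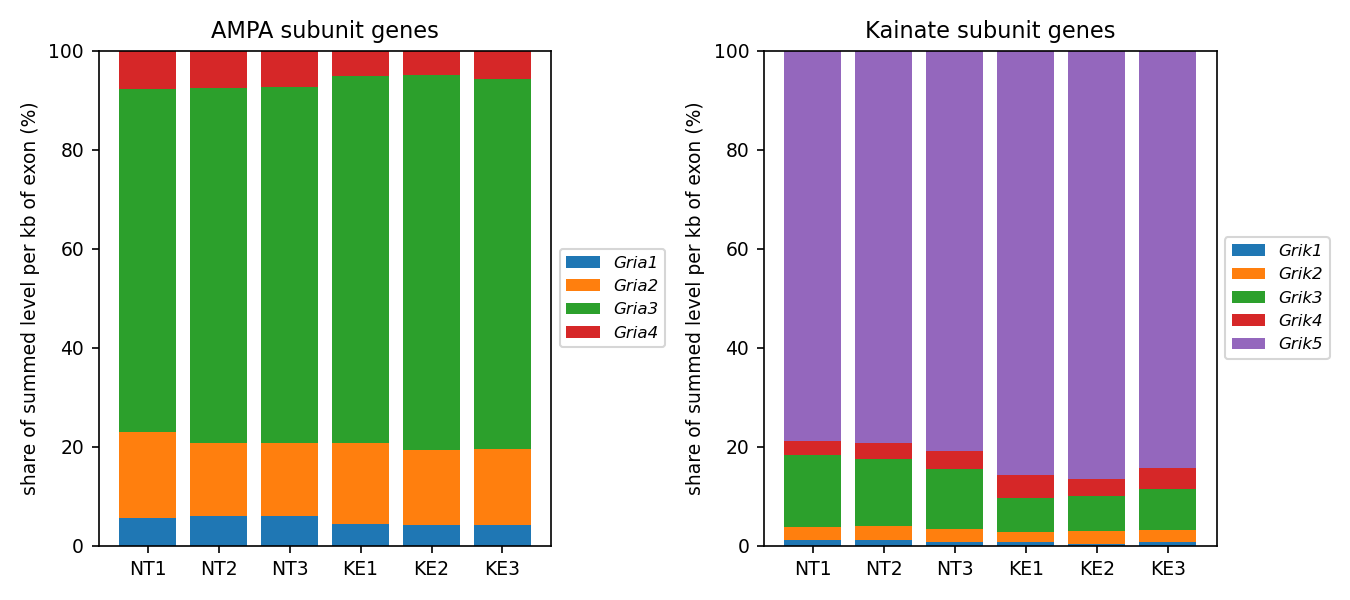
Share (%) of the summed level per kilobase of exon for the 4 AMPA subunit genes (left) and the 5 kainate subunit genes (right) in each culture. The shares of Gria1, Gria4, Grik1, Grik2 and Grik3 lie lower in all 3 KE cultures than in any NT culture, and those of Gria3 and Grik5 lie higher.

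Among the kainate receptor genes, the differences ran in both directions. Grik5 encodes GluK5, which binds glutamate with high affinity but needs a partner of the GluK1 to GluK3 type to form a channel. Grik5 (ENSMUSG00000003378, minus strand of chromosome 7, 24709269 to 24772708) was at 2607, 2853 and 2521 in KE and at 2343, 2339 and 2281 in NT. It was the only gene of the 10 that was called higher, with a difference of 0.19 on the log2 scale (standard error 0.06, limma adjusted p = 0.022) and no overlap. This call was lost without KE replicate 2 (log2FC 0.14, adjusted p = 0.072) or NT replicate 3 (0.18, adjusted p = 0.067 from limma). The exons of Grik5 overlap those of Zfp574 on the other strand over 145 bases, and Zfp574 had a mean of 826 normalized counts. Grik2, whose product GluK2 forms kainate channels, was at 113.5, 148 and 129 in KE and at 139, 149 and 136 in NT. The groups overlapped, and its log2FC was -0.13 with a 95% interval from -0.45 to 0.19 (adjusted p = 0.49 from limma). Grik1 had the lowest normalized counts of the 10 genes, at 17.1, 9.93 and 15.4 in KE and at 25.4, 23.6 and 16 in NT. Its log2FC of -0.59 had a wide 95% interval, from -1.34 to 0.16 (adjusted p = 0.17 from limma). With single cultures left out it ranged from -0.79 to -0.37, likewise without a call.

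A larger share of the kainate subunit pool, in which Grik3 and Grik4 are counted as well, came from Grik5 in every KE culture, at 85.7%, 86.6% and 84.3% against 78.8%, 79.3% and 80.9% in NT (two-sided exact permutation p = 0.1, adjusted p = 0.143). The share of Grik3, the gene of the channel-forming GluK3, was 7.42% ± 0.821 in KE and 13.4% ± 1.26 in NT, and that of Grik2 was 2.31% ± 0.22 and 2.68% ± 0.112 (SD, n = 3), both without overlap and with an exact permutation p of 0.1. The share of Grik1 was 0.776%, 0.417% and 0.712% in KE and 1.18%, 1.11% and 0.786% in NT, likewise without overlap (exact permutation p = 0.1, adjusted p = 0.143). These smaller shares are bound to the larger share of Grik5, and the levels of Grik1 and Grik2 themselves were not called. In normalized counts, Grik3 was at 222.5, 259 and 271 in KE and at 471, 436 and 369.6 in NT. Its log2FC was -0.76 (adjusted p = 0.00038 from limma). Grik4, which encodes the other high-affinity subunit, was at 149, 113 and 132 in KE and at 88.3, 98.0 and 104 in NT. It was called higher (log2FC 0.43, adjusted p = 0.041 from limma), but not without KE replicate 1 or 3 or NT replicate 1 or 2 (log2FC 0.34 to 0.44, adjusted p 0.072 to 0.16).

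The NMDA receptor requires GluN1, the product of Grin1. This gene was at 67.2, 102.5 and 74.7 in KE and at 54.3, 70.4 and 81.9 in NT. The groups overlapped, and the log2FC was 0.24 with a 95% interval from -0.25 to 0.72 (adjusted p = 0.39 from limma). It was 0.06 without KE replicate 2, 0.08 without NT replicate 1, and 0.26 to 0.37 when each of the other cultures was left out, and it was called in none of these fits. Its exons overlap 1307 bases of the antisense gene Grin1os, listed at 0 in all 6 cultures. Of the genes for the partner subunits, Grin2b had the highest normalized counts, at 490.4, 339 and 615 in KE and at 959, 617 and 614 in NT. Its log2FC was -0.61 (adjusted p = 0.033 from limma), although KE replicate 3 lay above NT replicate 3, and it was not called without KE replicate 1, KE replicate 2 or NT replicate 1 (log2FC -0.64 to -0.38, adjusted p 0.065 to 0.13). Grin2c was at 9.04, 8.75 and 8.15 in KE and at 17.8, 15.5 and 17.2 in NT (log2FC -0.89, adjusted p = 0.047 from limma), a call lost when any of the 6 cultures was left out (log2FC -0.94 to -0.85, adjusted p 0.07 to 0.12). Grin2a, Grin2d and Grin3a were not called, with log2FC of -0.88, 0.13 and -0.44. Single cultures moved 2 of these values. Grin2a was called without KE replicate 1 (-1.65, adjusted p = 0.016 from limma), but was at -0.41 without KE replicate 2 and -0.57 without KE replicate 3, not called. Grin3a was called without KE replicate 2 (-0.58, adjusted p = 0.026 from limma), but was at -0.30 without KE replicate 1, not called.

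The remaining genes of the family were mostly low. The delta receptor gene Grid1 was not called (log2FC 0.22, adjusted p = 0.1 from limma), but was called higher after quantile normalization (0.30, adjusted p = 0.029). Grm8, a metabotropic receptor of the Gi/o-coupled group III, was at 30.6, 56.4 and 47.5 in KE and at 17.6, 35.2 and 21.8 in NT (log2FC 0.84, adjusted p = 0.049 from limma), with overlap between the groups, and was not called without KE replicate 2 or 3 or NT replicate 1 or 3 (log2FC 0.63 to 0.78, adjusted p 0.1 to 0.17). Grm4 and Grm7 of the same group were not called, at means of 18.4 and 15.8 over the 6 cultures. Grin3b was below the filter with a mean of 4.43, and Grm2 and Grm6 are listed at 0 in all 6 cultures. In all, 12 of the 16 genes were tested, of which 2 were called higher and 4 lower, a called share near the 51.3% of all tested genes.

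**Figure D3:**
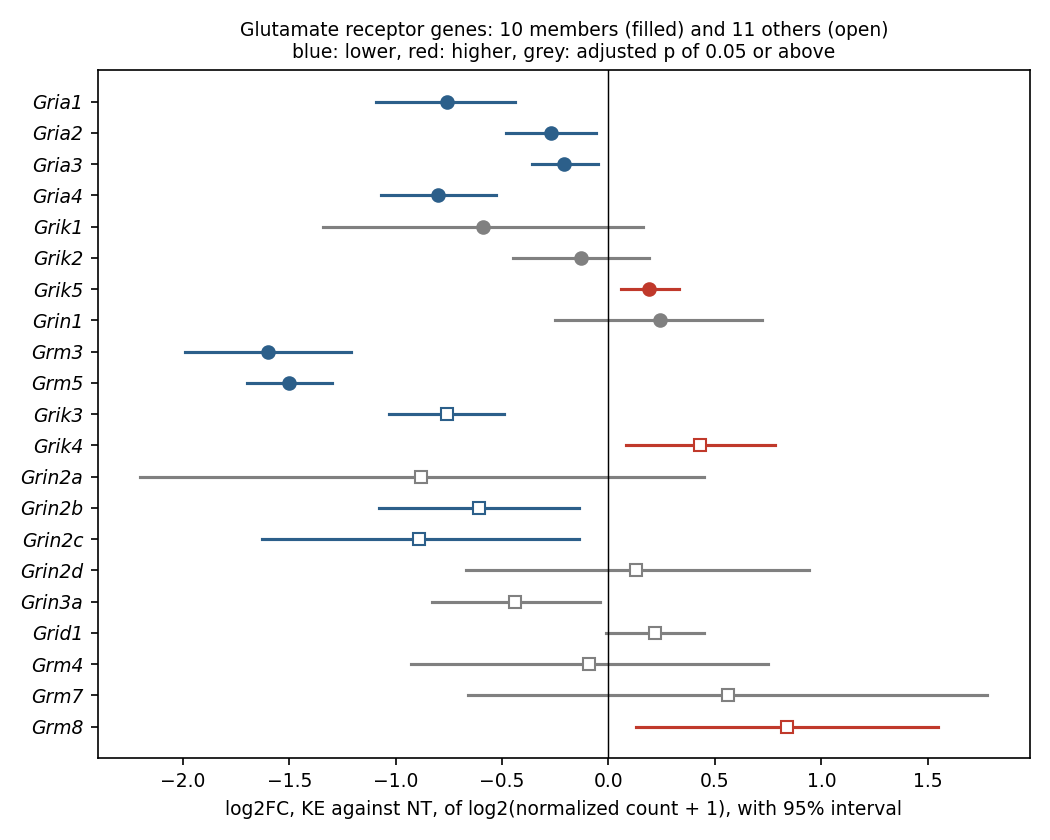
The log2FC (KE against NT) with its 95% interval from limma for the 10 receptor genes (filled circles) and 11 other tested glutamate receptor genes (open squares). Intervals of Grm3 (-1.99 to -1.21) and Grm5 (-1.70 to -1.30) lie below those of the other filled genes except Grik1 (-1.34 to 0.16), and low genes such as Grin2a and Grm7 have wide intervals.

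Levels of the 10 genes were put in order per kilobase of annotated exon. In NT, Grik5 (249.6 ± 3.72 normalized counts per kilobase) and Gria3 (230.4 ± 12.7) were the highest, followed by Grm5 (102 ± 7.95), Gria2 (50.6 ± 5.0), Grm3 (33.9 ± 4.38), Gria4 (24.2 ± 0.46), Gria1 (19.1 ± 1.09), Grik2 (8.41 ± 0.42), Grin1 (6.21 ± 1.25) and Grik1 (3.23 ± 0.744; SD, n = 3). The ranges over the 3 NT cultures did not overlap between any neighbours in this order, most narrowly for Grik5 (lowest 245.3) and Gria3 (highest 245). The order depends on the length assigned to a gene, as with the longest transcript Gria3 (495) stood above Grik5 (459), Gria2 (128.9) stood level with Grm5 (128.8), and Gria4 (67.1) stood above Grm3 (41.4). Per kilobase of exon, Grik5 was higher than 71.2% of tested genes in NT and Grik1 than 3.94%. In KE, Grm5 stood below Gria2 (36.2 ± 2.90 against 41.9 ± 4.50 per kilobase), with overlapping ranges, and Grm3 (11.15 ± 2.13) stood below Gria4 (14.03 ± 2.27) and beside Gria1 (11.3 ± 1.21), again with overlap.

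AMPA and kainate receptors are accompanied by auxiliary subunits that set their gating and delivery. Of 17 tested genes of this kind, 3 were higher and 5 lower, a called share near the background, with a median log2FC of 0.04. The largest fall was that of Shisa7 (29.8 ± 8.35 in KE, 74.99 ± 11.9 in NT, log2FC -1.33), followed by Frrs1l (-1.27), whose product assists AMPA receptor assembly in the endoplasmic reticulum. Neto1 encodes an auxiliary subunit of kainate receptors and was at 209, 196 and 203 in KE and at 529, 594 and 317 in NT (log2FC -1.19, adjusted p = 0.0004 from limma). Gsg1l, whose product slows the recovery of AMPA receptors from desensitization, was higher (202 ± 10.9 in KE, 86.0 ± 13.2 in NT, log2FC 1.23), as were Cpt1c (0.89), a partner of AMPA receptors in the endoplasmic reticulum, and Cacng7 (0.39), which encodes a transmembrane AMPA receptor regulatory protein.

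Scaffold and trafficking genes were called higher for 6 and lower for 4 of 19 tested, again a called share near the 51.3% of all tested genes, with a median log2FC of 0.14. Homer2, a member of the Homer family that links group I metabotropic receptors such as mGluR5 to Ca2+ stores, was at 162, 113 and 159.7 in KE and at 362, 426 and 484 in NT. It was lower in every KE culture (log2FC -1.55, adjusted p = 1.5e-05 from limma). Dlgap3 (log2FC -1.48), a postsynaptic scaffold gene, and Grip1 (-0.61), whose product binds GluA2 and GluA3, were lower too. Dlg2 (0.85) and Dlg1 (0.63), which encode PSD-93 and SAP97, and Pick1 (0.56), another binding partner of GluA2 and GluA3, were higher.

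Genes of metabotropic signalling and Ca2+ release were higher for 5 and lower for 6 of 20 tested, shares near the background of 25.3% higher and 26.0% lower, with a median log2FC of -0.04. The IP3 receptor genes did not move together. Itpr3, the lowest of the 3 in normalized counts, fell from 171 ± 26.2 in NT to 58.6 ± 11.8 in KE (log2FC -1.54), while Itpr2 was higher in every KE culture (1957 ± 130 against 1523 ± 103, log2FC 0.36, adjusted p = 0.0019 from limma) and Itpr1 was not called (log2FC 0.11, adjusted p = 0.26); Itpr1 and Itpr2 were named after their values were seen. The adenylyl cyclase gene Adcy1 (-0.89) and the Gi gene Gnai1 (-0.82) fell. Gnao1, the Go alpha subunit gene, was higher (14592 ± 396 in KE, 8420 ± 454 in NT, log2FC 0.79), as were Adcy9 (0.64) and the protein kinase C gene Prkca (0.50; SD, n = 3). The enzymes that edit adenosine in RNA formed a list of 3 genes. Adar was at 7028, 7918 and 7885 in KE and at 3811, 4071 and 3396 in NT (log2FC 1.02, adjusted p = 1.1e-06 from limma). Adarb1, whose product ADAR2 edits the Q/R site of Gria2 and was named after its values were seen, was at 602, 633 and 706 in KE and at 568, 547 and 561 in NT. Every KE culture was above every NT culture, as in 30.1% of tested genes, but the log2FC of 0.21 was not called (adjusted p = 0.062 from limma). Adarb2 was below the filter, with a mean of 4.17.

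**Figure D4:**
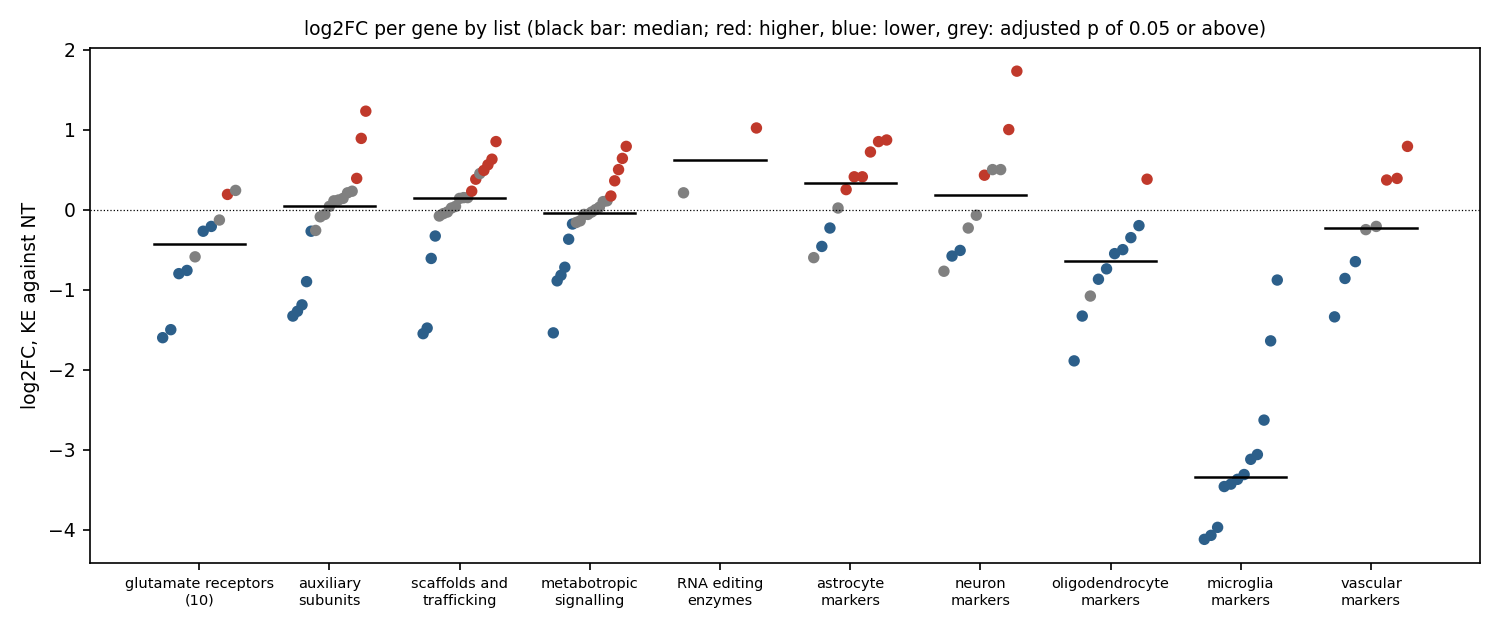
The log2FC (KE against NT) of each tested gene, as points, for the 10 receptor genes, 4 lists of related genes and 5 lists of cell type markers, with a black bar at each list's median. The receptor genes have a median of -0.43. The medians of the marker lists are -0.65 (oligodendrocyte), -3.34 (microglia), -0.23 (vascular and fibroblast), 0.18 (neuron) and 0.33 (astrocyte).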

How the data were processed

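RNA-seq of 3 KE and 3 NT cultures was used, grouped by the sample titles, and all 6 were kept. The authors deposited a normalized signal, gene counts divided by DESeq2 size factors, which is not divided by gene length. The submitters' notes name Trim Galore, STAR, Salmon and DESeq2 and list GRCh38, but the identifiers are those of mouse genes. The supplemental methods give GRCm39 for mouse and a batch adjustment, in a paragraph that lists hippocampus and spheroids as its samples and names astrocytes for a fold-change threshold. They name no batches for these cultures. The library kit was stranded, and whether counting used strand is not given in the sources used here. In each culture the commonest low value was taken as 1 read. No more than 77.6% of the low values were whole multiples of it (tolerance 0.1), so reads were not recovered, no count test was run and depth is approximate.

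Differences were estimated on log2(normalized count + 1) for the 15280 genes with a mean of at least 10. The model (limma 3.58.1, R 4.3.3) held the group alone and used a variance trend, with Benjamini-Hochberg adjustment across those genes. Tests are two-sided. Shares were compared by exact permutation (SciPy 1.17.1). Gene positions and exon lengths (the union of a gene's exons) came from Gencode vM39 on GRCm39. The fits were tested on simulated data, but no outcome of that test is given here. The receptor genes and lists were chosen from general knowledge with earlier results of these data known. Besides Braf, the 10 genes and the other receptor genes, the text names up to 3 rises and 3 falls per related list (adjusted p under 0.05, mean of at least 50, no overlap), and of the marker lists the highest genes, those at 0 and exceptions. A few genes of these lists are counted but not reported by name here. Alternatives were other pseudocounts (0.5 and 5), no filter or a mean of at least 50, scaling by the 75th percentile, quantile normalization, no variance trend, the replicate number as a block, the longest transcript as length, and leaving out each culture in turn.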

Additional observations from a re-analysis of the deposited data

How the results depend on the processing

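Over 14 alternatives the calls of Gria1, Gria4, Grm3 and Grm5 were made in every one, with log2FC from -1.70 to -1.44 for Grm3 and from -1.56 to -1.43 for Grm5. Without the variance trend, Gria2 (log2FC -0.27, adjusted p = 0.096), Gria3 (-0.21, adjusted p = 0.088) and Grik5 (0.19, adjusted p = 0.059) were not called by limma, which left 0 of the 10 genes called higher. Leaving out each culture in turn gave log2FC of -0.34 to -0.18 for Gria2, -0.25 to -0.14 for Gria3 and 0.14 to 0.23 for Grik5, with 0 to 1 of the 10 genes called higher and 4 to 6 lower. It also gave differences in share of -0.401 to 0.988 percentage points for Gria2, and of -0.25 to 0.07 for the log2 ratio of Grm3 to Grm5, so neither has a settled sign, and log2FC of -0.10 to 0.35 for Grin2d, -0.38 to 0.06 for Grm4 and -0.15 to 1.09 for Grm7, which were not called. Quantile normalization, which moved the median log2FC of all genes by less than 0.1, turned the uncalled Grik2 to 0.03 and raised the calls of higher genes to 5 auxiliary subunits and 2 editing enzymes, and the cause was not tested. Grm8 was not called with a pseudocount of 0.5, with no filter or without the trend (log2FC 0.84 to 0.85), Grin2b not without the trend (-0.61, adjusted p = 0.12), and Grik4 and Grin2c not with no filter (adjusted p = 0.073 and 0.11). With the filter at a mean of 50, Grik1 gave no value. Of the 10 genes, Grik1 had the lowest normalized counts, and the value of 1 read was approximately 0.905 to 1.25 normalized counts.

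Cultures of KE and NT with the same replicate number deviated together only weakly, with r across genes of 0.059 to 0.066 against -0.05 to -0.01 for other numbers. All 6 cultures correlated best with their own number, a hint from the data and not from the design. Deviations were taken from the mean of each group, so a higher r with the same number lowers the others by construction. The 6 are therefore not independent. A replicate block gave 8046 calls over all genes in place of 7844, the calls of the 10 genes did not change, and Grik4 (log2FC 0.43, adjusted p = 0.059 from limma) and Grin2c (-0.89, adjusted p = 0.071) were not called. The block left the differences in shares as they were, by construction.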
